A study of Mus musculus with 18 samples.

Results

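Protein phosphatase 2A (PP2A) was examined through 8 genes: the catalytic subunits Ppp2ca and Ppp2cb, the scaffold subunits Ppp2r1a and Ppp2r1b, and the modulators Igbp1, Set, Ppme1 and Lcmt1. A probe was taken where RefSeq gives the accession in its name to one of these genes. This gave 9 of the 37246 probes and 8 of the 34289 distinct names on the array. Each gene had 1 probe except Ppp2r1b, which had 2. At least 1 array showed 8 of the 9 probes well above background, and the second probe of Ppp2r1b (NM_001034085) was not well above background on any array. The values of Ppp2r1b below are therefore those of its other probe (NM_028614). In this microarray experiment the RNA of the phosphatase in mouse embryonic stem (ES) cells was set against that in isogenic differentiated (ED) cells, before and after ionizing radiation (IR).

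PP2A is a serine/threonine phosphatase of all eukaryotic cells. Its core is a scaffold A subunit that holds a catalytic C subunit, and a regulatory B subunit joins this core and directs it to substrates, among them proteins of the DNA damage response and the kinase Akt. Igbp1 (alpha4) binds C subunits outside the complex and protects them, and Set is an inhibitor of the phosphatase. Lcmt1 adds a methyl group to the last leucine of the C subunit, which favors binding of some B subunits, and Ppme1 removes it.

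The ES cells were primary, early passage cells isolated from blastocysts and grown on gelatin without feeder cells in medium with leukemia inhibitory factor (LIF). The ED cells were made from them by culture without LIF, for at least 4 days by the study's methods and for 1 week or until stem cell markers were lost by the labels, and are therefore defined by the loss of markers and not by a lineage. ES and ED are the unirradiated groups. ESRE and EDRE were collected early, 15 min after 10 Gy, and ESRL and EDRL late, 4 h after 10 Gy. Each of the 6 groups had 3 samples, and total RNA of each was labeled with Cy3 and hybridized to its own array. Nothing in the labels says that the 3 samples were separate cultures, so p-values measure the spread between these samples, which may be technical.

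Of the 6 genes that could be tested between ES and ED cells, Ppp2ca, Ppp2r1b and Lcmt1 were called in the fit reported below. These calls depend on the settings, as given there. Ppp2r1a and Igbp1 could not be tested in that fit. The sequence upstream of an annotated start of each of the 3 called genes is shown. Each is the 250 bases before that start in RefSeq (GRCm38.p6), on the + strand, written 5′ to 3′. The Ppp2r1b and Lcmt1 genes begin earlier, at 50856896 and 123377803, so the end of the Ppp2r1b window and most of the Lcmt1 window lie inside the annotated gene. Capitals mark matches on either strand to 3 motifs: the cyclic AMP response element (TGACGTCA), the CCAAT box (CCAAT or ATTGG) and the GC box (GGGCGG or CCGCCC).
Ppp2ca, chr11:52098574-52098823: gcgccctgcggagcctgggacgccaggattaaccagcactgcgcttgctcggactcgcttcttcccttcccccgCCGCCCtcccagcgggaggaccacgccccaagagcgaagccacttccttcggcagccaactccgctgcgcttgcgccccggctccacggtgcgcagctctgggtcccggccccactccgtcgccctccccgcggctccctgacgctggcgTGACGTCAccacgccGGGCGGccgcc
Ppp2r1b, chr9:50856674-50856923: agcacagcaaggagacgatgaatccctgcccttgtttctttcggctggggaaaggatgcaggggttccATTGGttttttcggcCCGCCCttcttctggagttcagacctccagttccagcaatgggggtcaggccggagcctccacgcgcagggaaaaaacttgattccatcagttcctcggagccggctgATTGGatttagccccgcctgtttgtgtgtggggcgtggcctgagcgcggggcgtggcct
Lcmt1, chr7:123377732-123377981: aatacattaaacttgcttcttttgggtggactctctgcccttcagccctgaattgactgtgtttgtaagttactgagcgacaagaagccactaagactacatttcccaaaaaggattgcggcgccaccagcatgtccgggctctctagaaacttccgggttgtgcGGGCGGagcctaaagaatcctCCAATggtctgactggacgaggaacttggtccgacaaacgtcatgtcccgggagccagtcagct
The Ppp2ca window was the richest of these in G and C (73.6%, against 59.2% for Ppp2r1b and 51.2% for Lcmt1, and a median of 52.4% over all 32851 such windows). It holds 1 cyclic AMP response element, which begins 26 bases before the start, and 1.55% of all windows hold one. The Ppp2r1b and Lcmt1 windows shown each hold CCAAT and GC boxes, which are in 33.8% and 32.7% of all windows. Those of Lcmt1 lie inside the annotated gene. A second annotated start of Lcmt1 (window chr7:123407567-123407816, not shown) has no match to any of the 3 motifs. RefSeq windows were matched for 7 of the 8 genes, and none was available for Ppp2cb. A match is a run of letters and no evidence of binding, and the coordinates belong to the RefSeq build and not to the array design.

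Levels below are log2 processed signals minus the log2 75th percentile of their own array, so that 0 is the brightness of that percentile. They compare arrays for 1 probe and not probes with each other. The 75th percentile lay at 2806 to 4268 on 15 arrays and was lower on replicates 2 and 3 of EDRE (875 and 1155) and replicate 1 of ESRL (1952), the 3 dimmer arrays. Outlier spots were 24.4% and 23.8% of the spots on these replicates of EDRE and 3.33% to 11.1% elsewhere. Marker levels differed between ES and ED, and the lists of differentiated cells moved in both directions. A summed level is the log2 of the sum of the unlogged relative signals of a list. Its brightest probes carry most of it, and single genes need not move with it. The summed level of 8 stem cell genes was 9.09 to 9.12 in ES and 2.37 to 2.59 in ED. That of 5 mesenchymal genes was 4.96 to 5.05 and 8.65 to 9.02, and that of 2 neural genes 1.38 to 1.64 and 1.79 to 2.24. Lower in ED were 5 endoderm genes, at 1.44 to 1.51 and 0.17 to 0.23, and 2 mesoderm genes, at −1.56 to −1.29 and −8.50 to −5.20. Of the stem cell genes 8 of 8 were above background on all ES arrays and 6 on all ED arrays, and of the mesoderm genes 2 and 0. The counts were 5 and 4 for the mesenchymal genes, 5 and 4 for the endoderm genes, and 2 and 2 for the neural genes. The mesenchymal list thus lost a detected gene in ED although its summed level was higher there. ES arrays had a scan time that no other array shared and no scan held both groups of a comparison made here, so scan time and group cannot be told apart.

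Between unirradiated ED and ES cells, 1 PP2A gene was higher and 2 were lower, of 6 genes tested. Ppp2ca was about 2-fold higher in ED cells, and Ppp2r1b and Lcmt1 were each more than 2-fold lower. A gene was called where the Benjamini-Hochberg adjusted p of limma, over all probes tested, was under 0.05. Of all 28636 probes tested, 51.9% were called, 19.8% higher and 32.1% lower in ED, so a call here is common. The summed levels of the stem cell, mesenchymal, endoderm and mesoderm markers above move with the same comparison, and the part of a mixed cell population in these values was not tested. In bulk RNA, fewer cells of a type and less RNA per cell cannot be told apart. The median change of the 6 genes was −0.09, beside −0.19 over all probes. With each array set to its median instead of its 75th percentile, 10180 probes were called higher and 5983 lower, and the balance of directions therefore rests on the scaling. The PP2A genes moved with it: 3 were called higher and 0 lower with the array median (Ppp2ca, Ppp2cb and Ppme1), 5 higher and 0 lower in the deposited matrix, which is also near the array median, and 2 higher and 2 lower with quantile normalization.

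**Figure D1:**
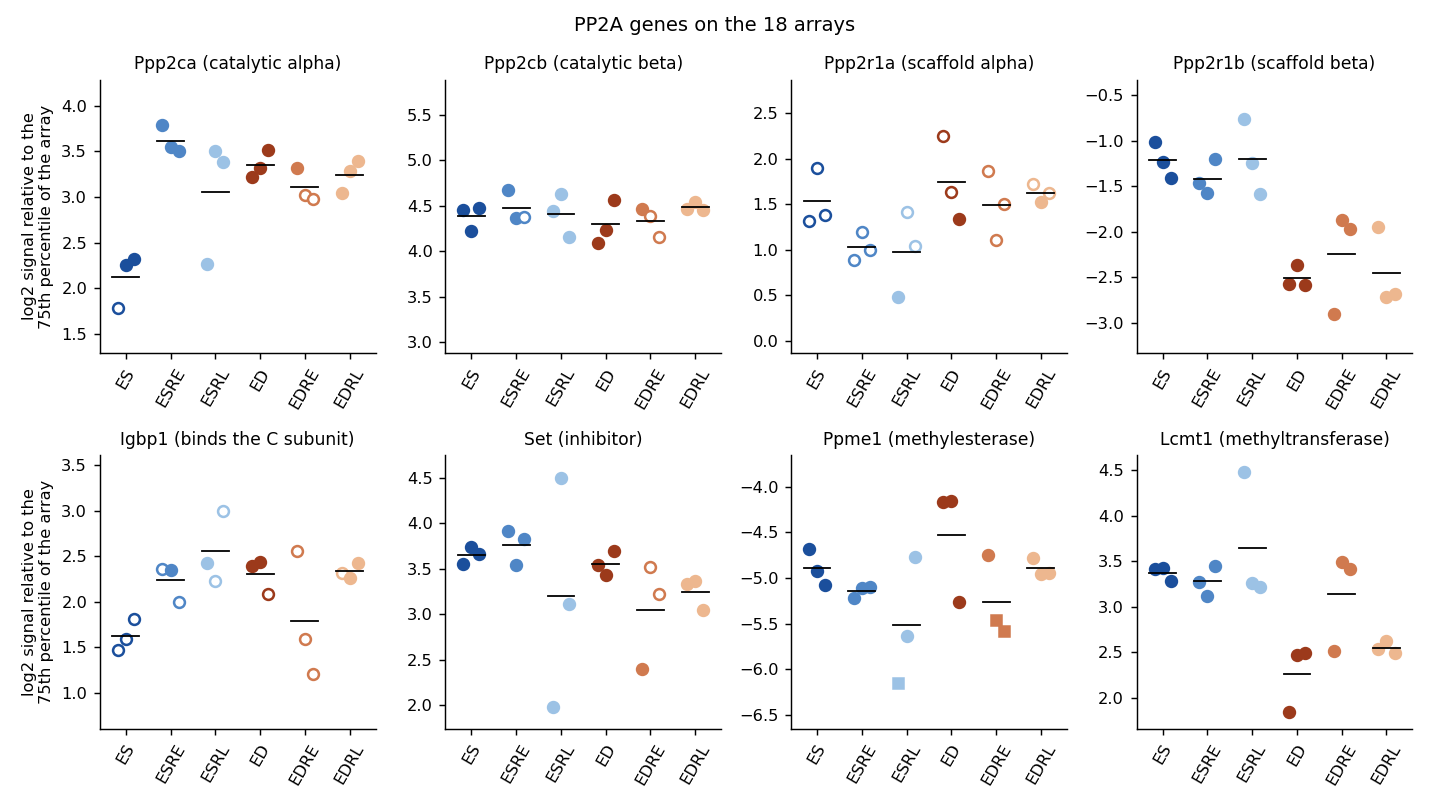
Log2 signal above or below the 75th percentile of each array (y axis) for each of the 8 PP2A genes, with 1 point for each of the 18 arrays in the 6 groups (x axis). Filled points are spots used in the fit, open points are outlier spots, squares are spots not well above background, and black bars are means of 3 arrays; the 3 ES arrays and replicate 1 of ESRL lie lowest for Ppp2ca (1.78 to 2.32), and the ES, ESRE and ESRL arrays lie above the ED, EDRE and EDRL arrays for Ppp2r1b.

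Ppp2ca, the alpha form of the catalytic subunit, had its lowest levels in unirradiated ES cells. The level was 1.78, 2.26 and 2.32 on the 3 ES arrays. On the ED arrays it was 3.21, 3.31 and 3.52. All 3 ED arrays were above all 3 ES arrays, and the ES spot at 1.78 was an outlier spot that the fit left out. From the other 2 ES arrays and the 3 ED arrays, the level was higher in ED by 1.06 (SE 0.31, 95% interval 0.37 to 1.75), or 2.09-fold, with an adjusted p = 0.0135 from limma. The call did not hold without replicate 2 or replicate 3 of ES (adjusted p = 0.0676 and 0.0537), each of which leaves 1 ES array with a spread taken from the remaining groups, while the change stayed at 1.03 and 1.09, nor with scan time as a random block (0.89, adjusted p = 0.308). Ppp2ca is on a list that the study drew from these same samples, so its change is no independent evidence. That list gives no direction. The study's text describes higher expression and radiation induction of the catalytic subunit in stem cells, and cites RT-PCR. For the protein it cites immunoblots, and immunofluorescence in co-plated ES and ED cells and in sections of testis, brain and intestine. Irradiated samples of its RT-PCR and immunoblots received a lower dose than these arrays. The direction found here in RNA of unirradiated cells, higher in ED, is the opposite, and the reason for the difference was not tested.

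After IR, Ppp2ca levels in ES cells lay above those of unirradiated ES cells at 15 min, and the change did not pass the threshold. The ESRE arrays read 3.79, 3.55 and 3.50, all above the ES arrays. The change was 1.32 (SE 0.31, 95% interval 0.64 to 2.01), or 2.50-fold, with an adjusted p = 0.107 in a comparison in which 0.563% of all probes were called. Of the 8 genes, 4 (50%) had ESRE arrays that did not overlap the ES arrays, against 36% of all probes tested. With the outlier spot of ES kept, the change was 1.49 (SE 0.28), or 2.81-fold, and was called (adjusted p = 0.0326), where 0.359% of all probes were. It was also called without replicate 1 of ESRL, which enters this comparison only through the spread (adjusted p = 0.00487).

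At 4 h the ESRL arrays read 2.27, 3.50 and 3.39 for Ppp2ca. Replicate 1, a dimmer array scanned alone, lay within the range of ES, and the other two were near the ESRE arrays. The change from ES was 0.76 (SE 0.31, 95% interval 0.08 to 1.45, adjusted p = 0.157), and 8.88% of all probes were called. Without replicate 1 of ESRL it was 1.15 and was called (adjusted p = 0.00682).

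In ED cells Ppp2ca had no called change after IR. The EDRE arrays read 3.32, 3.02 and 2.97, where replicates 2 and 3 were outlier spots left out of the fit. The EDRL arrays read 3.04, 3.28 and 3.40. All of these levels were between 2.97 and 3.40, near or within the ED range. The change was −0.03 at 15 min (95% interval −0.88 to 0.83, from 1 EDRE array) and −0.11 at 4 h (95% interval −0.71 to 0.49). Of all probes tested, 7.39% were called in EDRE against ED and 2.39% in EDRL against ED.

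The estimated difference in Ppp2ca between the cell types was smaller after IR, with the opposite sign at 15 min. ED exceeded ES by 1.06. EDRE differed from ESRE by −0.29 (95% interval −1.15 to 0.56, from 1 EDRE array). EDRL differed from ESRL by 0.19 (95% interval −0.42 to 0.80), and neither was called. With all spots, every EDRE array lay below every ESRE array, and 60.5% of all probes tested had no overlap there. Whether IR changed the difference between the cell types is tested by the interaction, which is the change in ES cells minus that in ED cells. It was 1.35 (SE 0.51, adjusted p = 0.184) at 15 min and 0.87 (SE 0.42, adjusted p = 0.359) at 4 h, and did not pass at either time. Of all probes, 2% passed at 15 min and 1.1% at 4 h. With outlier spots kept, the interaction at 15 min was 1.74 (SE 0.39), or 3.33-fold, and was called (adjusted p = 0.034), beside 2.47% of all probes. Without replicate 1 of ESRL the interaction was called at both times (adjusted p = 0.028 at 15 min and 0.0333 at 4 h).

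The order of the Ppp2ca groups from low to high was ES, ESRL, EDRE, EDRL, ED and ESRE, and each group overlapped its neighbor. Both the ED against ES and the ESRE against ES comparison use the same ES arrays, so the values of the ES arrays enter both changes. Of 27749 probes tested in both, 5.77% had all 3 ES arrays below all ED and ESRE arrays, as Ppp2ca did, and 9.88% had them above.

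Ppp2cb, the beta form of the catalytic subunit, stayed within a narrow range. Its level was between 4.09 and 4.67 on all 18 arrays, and the group means ran from 4.30 in ED to 4.49 in EDRL. Neighboring groups overlapped throughout. The difference between ED and ES was −0.09 (SE 0.18, 95% interval −0.49 to 0.31), and the changes after IR were 0.14 (ESRE), 0.03 (ESRL), 0.17 (EDRE) and 0.19 (EDRL), none of them called. ESRE rests on 2 arrays and EDRE on 1 array here, since the other spots were outliers. The direction between ED and ES depends on the scaling, as it was 0.56 (adjusted p = 0.0342) with each array set to its median, a scaling that moves the median of all probes from −0.19 to 0.46.

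Within arrays, Ppp2cb was lower relative to Ppp2ca in 4 of the 5 other groups than in ES, and this measure does not depend on how an array is scaled. The Ppp2cb level minus the Ppp2ca level, relative to its mean in ES, was −1.40 ± 0.03 (SD, n = 3) in ESRE and −1.32 ± 0.09 in ED. It was −1.03 ± 0.12 in EDRE and −1.02 ± 0.19 in EDRL. In these 4 groups no array overlapped the ES arrays, which spread from −0.30 to 0.41. In ESRL it was −0.91 ± 0.73 and overlapped ES, with replicate 1 at −0.09. These values include outlier spots and carry no test, and without outlier spots the means were −0.20 in ES, −1.41 in ESRE and −1.32 in ED. The 2 proteins are near-identical forms of 1 enzyme, and whether each probe reads its own RNA only was not tested, since no probe sequence was used.

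**Figure D2:**
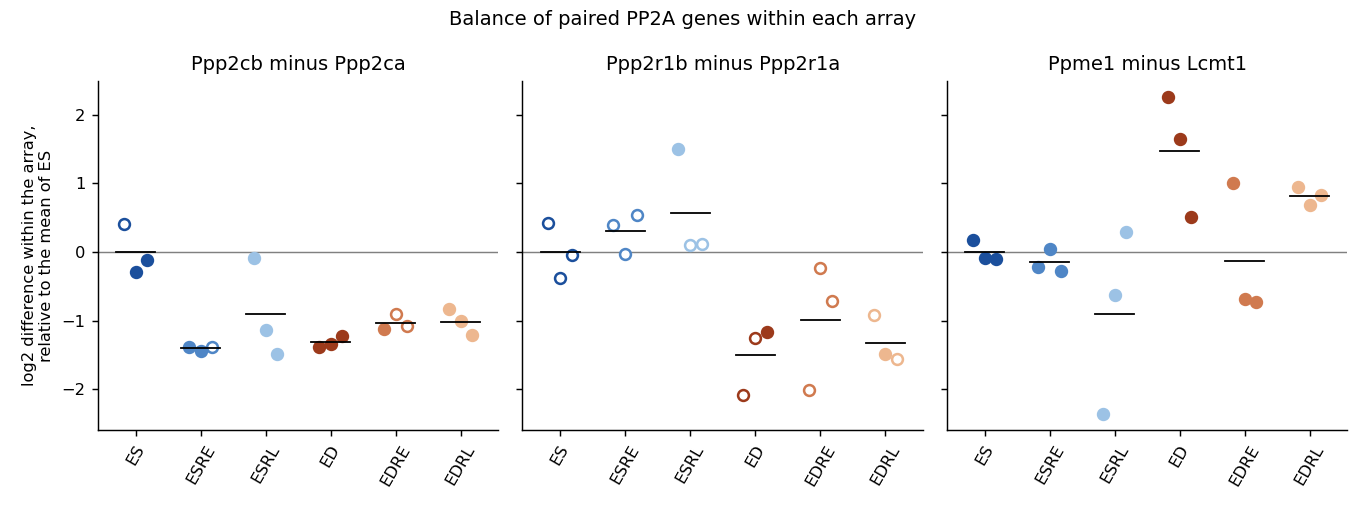
Differences between the log2 levels of paired genes within each array, relative to their mean in ES (y axis), for 3 pairs: Ppp2cb minus Ppp2ca, Ppp2r1b minus Ppp2r1a, and Ppme1 minus Lcmt1. Each point is 1 array of the group on the x axis, open points involve an outlier spot, and black bars are means of 3 arrays; the catalytic pair lies below ES in ESRE (−1.40), ED (−1.32), EDRE (−1.03) and EDRL (−1.02).

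Of the scaffold subunits, Ppp2r1b was lower in ED cells at all 3 times. Ppp2r1b encodes the beta form of the A subunit. Its level was −1.01, −1.23 and −1.41 in ES and −2.58, −2.36 and −2.58 in ED. ED was lower by 1.29 (log2 change −1.29, SE 0.29, 95% interval −1.91 to −0.68), or 2.45-fold, with an adjusted p = 0.0015 from limma, and the call held when any of the 6 arrays was left out. It did not hold with scan time as a random block (−1.31, adjusted p = 0.182) or with each array set to its median (−0.64, adjusted p = 0.0787). Set against the median change of all probes, it was between −1.25 and −1.09 under 7 settings, among them the fit reported. Subtracting this median cancels any scaling that shifts a whole array, so such settings had to give nearly the same value. Quantile normalization and normexp, which could move it, gave −1.25 and −1.09.

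The same direction was found for Ppp2r1b in irradiated cells, which share no array with the unirradiated groups but share the estimate of the spread. At 15 min the ESRE arrays read −1.46, −1.58 and −1.21 and the EDRE arrays −2.90, −1.87 and −1.97. The groups did not overlap, and EDRE was lower by 0.83 (log2 change −0.83, SE 0.28), or 1.78-fold, with an adjusted p = 0.0218. At 4 h the ESRL arrays read −0.76, −1.24 and −1.59 and the EDRL arrays −1.95, −2.71 and −2.69. Again the groups did not overlap, and the change was −1.25 (SE 0.29), or 2.38-fold, with an adjusted p = 0.00151.

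Many probes differed in these comparisons, as 56.7% of all probes were called in EDRE against ESRE (24% higher and 32.7% lower) and 62% in EDRL against ESRL (30.2% higher and 31.8% lower). The change at 15 min was called neither without replicate 3 of ESRE (−0.73, adjusted p = 0.0827) nor without replicate 1 of EDRE (−0.50, adjusted p = 0.105), which left the 2 dimmer arrays. Besides leaving out single arrays, it was called in 6 of 14 alternatives. It was −0.12 with each array set to its median (adjusted p = 0.739), −0.53 with quantile normalization (adjusted p = 0.0864) and −0.43 with normexp (adjusted p = 0.215). The call at 4 h stood with the array median (−0.77, adjusted p = 0.0319) and not with scan time as a random block (−0.94, adjusted p = 0.179). Ppp2r1b was the only gene of the 8 whose ES, ESRE and ESRL arrays all lay above its ED, EDRE and EDRL arrays, from −1.59 upward and from −1.87 downward, an order that 23.2% of the 22834 probes tested in all 3 comparisons shared.

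After IR, Ppp2r1b had no called change in either cell type. The changes were −0.20 (ESRE), 0.02 (ESRL), 0.26 (EDRE) and 0.06 (EDRL), with SEs between 0.28 and 0.29. The interactions were −0.46 at 15 min and −0.04 at 4 h and were not called.

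Ppp2r1a, the alpha form of the A subunit, could not be tested in any comparison. Its spot was an outlier spot on 15 of the 18 arrays, and no ES, ESRE or EDRE array was left. With all spots, the level was 1.32, 1.90 and 1.38 in ES and 2.25, 1.63 and 1.33 in ED, which overlapped. It was 0.88, 1.20 and 1.00 in ESRE and 0.48, 1.41 and 1.04 in ESRL. All ESRE arrays were below the ES arrays, while ESRL overlapped them. In EDRE it was 1.86, 1.11 and 1.5 and in EDRL 1.72, 1.52 and 1.62. In a fit that kept outlier spots, no change of Ppp2r1a was called in any of the 9 comparisons, and the largest was 0.64 in EDRL against ESRL (SE 0.28, adjusted p = 0.0616). With outlier spots kept and each array set to its median, Ppp2r1a was called higher in ED against ES (0.86, adjusted p = 0.0151), EDRE against ESRE (1.17, adjusted p = 0.00131) and EDRL against ESRL (1.12, adjusted p = 0.00197), as it was in the deposited matrix.

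Set against each other within arrays, with outlier spots kept, the scaffold forms shifted between ED and ES. The Ppp2r1b level minus the Ppp2r1a level, relative to ES, was −1.5 ± 0.50 (SD, n = 3) in ED and −1.32 ± 0.35 in EDRL, with no overlap with the ES arrays. It was −0.99 ± 0.92 in EDRE, 0.30 ± 0.30 in ESRE and 0.57 ± 0.81 in ESRL, and these overlapped ES. All ES, ESRE and EDRE points hold an outlier spot of Ppp2r1a, and only 1 point each of ED, EDRL and ESRL does not. The ES reference therefore rests on outlier spots, and no shift can be given without them.

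Of the binding proteins, Igbp1 was measured mostly by outlier spots, on 12 of 18 arrays. With all spots, its level was 1.47, 1.59 and 1.81 in ES and 2.39, 2.43 and 2.08 in ED. It was 2.36, 2.36 and 2.0 in ESRE and 2.43, 2.23 and 3.0 in ESRL. The ES arrays were below every ED, ESRE and ESRL array. In the fit that kept outlier spots the changes were 0.68 in ED (SE 0.29, adjusted p = 0.0662), 0.61 in ESRE (SE 0.29, adjusted p = 0.594) and 0.93 in ESRL (SE 0.29, adjusted p = 0.0692), none of them called. With outlier spots kept and each array set to its median, Igbp1 was called in ED against ES (1.33, adjusted p = 0.00396) and in ESRL against ES (1.24, adjusted p = 0.0459), as it was in the deposited matrix.

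In EDRE Igbp1 read 2.56, 1.60 and 1.21, with the 2 dimmer arrays lowest, and in EDRL 2.31, 2.27 and 2.42. Without outlier spots, the gene was tested only in EDRL against ED (−0.07, adjusted p = 0.939) and in EDRL against ESRL (−0.09, adjusted p = 0.814, from 2 EDRL arrays and 1 ESRL array). Igbp1b, a close relative of Igbp1, is among the genes described below, and whether the 2 probes are specific was not tested.

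Set, the inhibitor, had no called difference between unirradiated cells. It read 3.55, 3.74 and 3.66 in ES and 3.54, 3.44 and 3.69 in ED, a difference of −0.10 (SE 0.44, 95% interval −1.05 to 0.86). Its spread was large in ESRL, where the arrays read 1.99, 4.50 and 3.12. In the other groups it was 3.91, 3.54 and 3.83 in ESRE, 2.40, 3.52 and 3.22 in EDRE, and 3.33, 3.36 and 3.04 in EDRL. The wide ESRL values enter the spread of every Set comparison.

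EDRE differed from ESRE by −1.36 in Set (SE 0.62, adjusted p = 0.077) and from ED by −1.16 (SE 0.62, adjusted p = 0.265), both from replicate 1 of EDRE alone, since replicates 2 and 3 were outlier spots. With them kept the changes were −0.72 and −0.51, and not called. The change in ESRL was −0.45 (SE 0.44, adjusted p = 0.587), and it was −1.10 and called (adjusted p = 0.0174) without replicate 2 of ESRL, the highest array. A value for Set that rests on 1 array of a group has no spread of its own.

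Lcmt1, the methyltransferase, fell between ES and ED cells. The level was 3.41, 3.42 and 3.29 in ES and 1.84, 2.47 and 2.49 in ED. No array of one group overlapped the other, and the change was −1.11 (SE 0.32, 95% interval −1.79 to −0.42), or 2.16-fold lower, with an adjusted p = 0.00901 from limma. The call held when any of the 6 arrays was left out. It did not hold with scan time as a random block (−0.96, adjusted p = 0.307) or with each array set to its median (−0.46, adjusted p = 0.282). Relative to the median change of all probes, the change was between −1.37 and −0.92 under 7 settings, among them the fit reported. Here too, settings that shift whole arrays had to give nearly the same value. Quantile normalization and normexp gave −1.37 and −0.98.

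Lcmt1 also differed at 4 h, with less in EDRL. The ESRL arrays read 4.47, 3.26 and 3.21 and the EDRL arrays 2.53, 2.63 and 2.50, again without overlap. The change was −1.10 (SE 0.32), or 2.14-fold, with an adjusted p = 0.00775. It was −0.68 (adjusted p = 0.0408) without replicate 1 of ESRL, the dimmer array at 4.47. Besides leaving out single arrays, the call stood in 9 of 14 alternatives. It was lost with each array set to its median (−0.62, adjusted p = 0.137), in the deposited matrix (−0.61, adjusted p = 0.143), with scan time as a random block (−0.80, adjusted p = 0.209) and by the methods' t-test (adjusted p = 0.097). These 4 h groups share no array with the unirradiated ones. Of the 8 genes, 3 (37.5%) did not overlap here, against 68.7% of all probes tested, and in ED against ES 4 (50%) did not, against 72%.

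At 15 min the Lcmt1 levels of the cell types overlapped. The ESRE arrays read 3.27, 3.12 and 3.44 and the EDRE arrays 2.51, 3.49 and 3.42, a difference of −0.14 (SE 0.32, 95% interval −0.81 to 0.54). The upper 2 EDRE values are those of the dimmer replicates 2 and 3. In each group that holds a dimmer array, the dimmer arrays read highest for Lcmt1, and the part of dimness in this was not tested. Without the 3 dimmer arrays, EDRE, left with 1 array, was lower than ESRE by 0.77 (log2 change −0.77) and the call was made (adjusted p = 0.0152).

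The same arrays bear on the change of Lcmt1 in ED cells after IR, which was 0.87 at 15 min (SE 0.32, adjusted p = 0.0951) and 0.29 at 4 h (SE 0.32, adjusted p = 0.769). All 3 EDRE and all 3 EDRL arrays were above all 3 ED arrays. Without the dimmer arrays the change at 15 min was 0.24 (adjusted p = 0.629), and without the bright replicate 1 of EDRE it was 1.19 and called (adjusted p = 0.00729). In ES cells the changes were −0.10 in ESRE and 0.27 in ESRL, and the interactions were −0.97 (adjusted p = 0.267) and −0.01.

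Ppme1, the methylesterase, was the dimmest of the measured genes, with signals of 19.9 to 238. It was well above background on 15 of 18 arrays, and the 3 others were the dimmer arrays. The level was −4.68, −4.93 and −5.08 in ES and −4.17, −4.16 and −5.27 in ED, which overlapped. In ESRE it was −5.22, −5.11 and −5.10, all below the ES arrays by a small margin. In ESRL it was −6.16, −5.64 and −4.77, in EDRE −4.75, −5.46 and −5.58, and in EDRL −4.78, −4.96 and −4.95. No change was called, and the largest was −0.73 in EDRE (SE 0.34, adjusted p = 0.188), which rests on 2 arrays not above background. ED differed from ES by 0.37, and this was 1.01 and called with each array set to its median (adjusted p = 0.0265) and 1.14 with quantile normalization (adjusted p = 0.0128). EDRL differed from ESRL by 0.62, and this too was called with the array median (1.11, adjusted p = 0.0134), with quantile normalization (1.05, adjusted p = 0.0156) and without replicate 3 of ESRL (1.0, adjusted p = 0.0163). The change in EDRE was called without replicate 1 of EDRE (−0.99, adjusted p = 0.0391), which leaves the 2 arrays not above background.

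Within arrays, Ppme1 was higher relative to Lcmt1 in 2 of the 3 ED groups than in ES. The Ppme1 level minus the Lcmt1 level, relative to ES, was 1.47 ± 0.88 (SD, n = 3) in ED and 0.82 ± 0.13 in EDRL, with no overlap with the ES arrays, and −0.13 ± 0.99 in EDRE, where values overlapped. It was −0.15 ± 0.17 in ESRE and −0.90 ± 1.35 in ESRL, which also overlapped, and the dimmer arrays enter with Ppme1 spots not above background. This holds at the level of RNA and says nothing of the methylation of the enzyme.

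**Figure D3:**
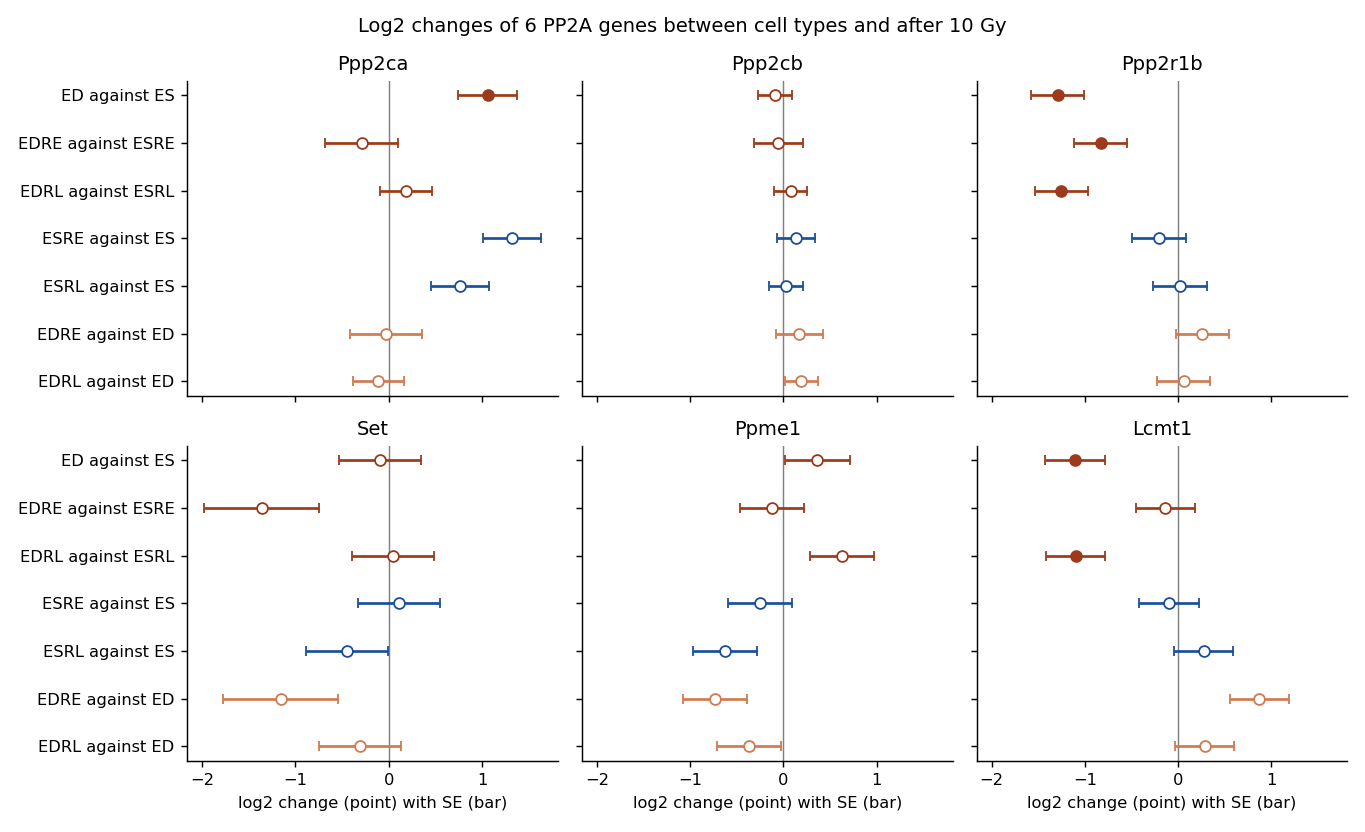
Log2 changes of 6 PP2A genes (points, x axis) with their SE (bars) from the limma fit, for the 7 comparisons of 2 groups named on the y axis. Filled points have an adjusted p under 0.05 and open points do not; Ppp2ca (1.06), Ppp2r1b (−1.29) and Lcmt1 (−1.11) are called in ED against ES, and none is called after IR in either cell type.

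No PP2A gene was called after IR in either cell type. limma called 0 of 6 genes in each of ESRE, ESRL and EDRE, and 0 of 7 in EDRL, beside 0.563%, 8.88%, 7.39% and 2.39% of all probes. At an unadjusted p under 0.05 the counts were 1, 1, 2 and 0, which were Ppp2ca in both ES comparisons and Lcmt1 and Ppme1 in EDRE, beside 9.45%, 25%, 26% and 13.9% of all probes. For the interactions the count called was 0 of 6 at both times, beside 2% of all probes at 15 min and 1.1% at 4 h. At an unadjusted p under 0.05 there were 2 at 15 min, Ppp2ca and Lcmt1, and 0 at 4 h, beside 18.7% and 15.2% of all probes. The median changes of the genes tested were 0.01 (ESRE), 0.02 (ESRL), 0.07 (EDRE) and −0.07 (EDRL), beside −0.08, −0.16, 0.03 and −0.09 over all probes. Between irradiated cells, 1 of 6 genes (Ppp2r1b) was called at 15 min and 2 of 7 (Ppp2r1b and Lcmt1) at 4 h, beside 56.7% and 62% of all probes.

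**Figure D4:**
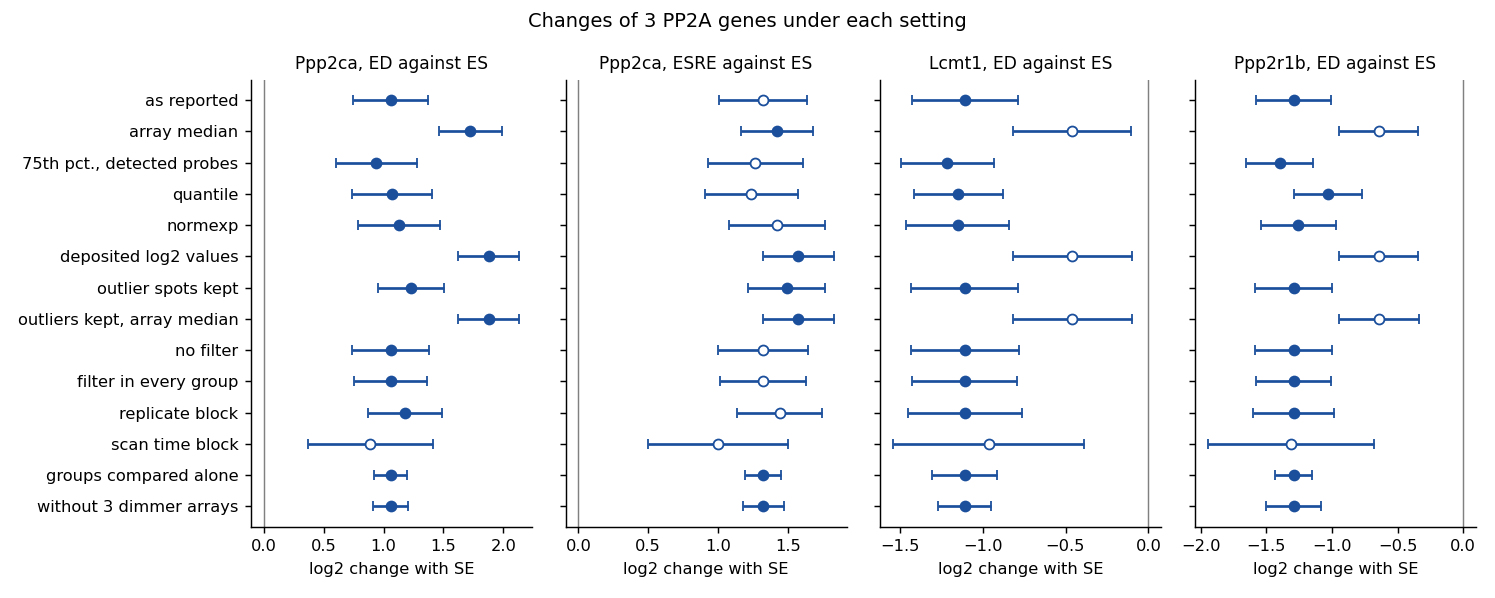
Log2 changes of 3 PP2A genes (points, x axis) with their SE (bars), as reported and under the alternative settings named on the y axis. Filled points have an adjusted p under 0.05 and open points do not; Ppp2ca in ED against ES stays between 0.89 and 1.88, and Ppp2r1b between −1.40 and −0.64.

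Other genes around PP2A were read from a list of 13 catalytic relatives and regulators, 11 of which were on the array. In ED against ES, 3 of 10 tested were higher and 2 lower, with Ensa in both counts, beside 19.8% and 32.1% of all probes. Ptpa, an activator of the phosphatase, was higher by 1.08 (SE 0.30, adjusted p = 0.00672). Ensa, an inhibitor of PP2A in mitosis, was lower by one probe (NM_019561, −1.29, adjusted p = 0.00311, from 1 ES array) and higher by the other (NM_001026212, 0.66, adjusted p = 0.0486). Igbp1b was not well above background on any ED array, so only a bound can be given. It was at least 1.45-fold lower in ED, with each dim array set no lower than its dimmest probe above background. Its call rests on measured ED signals below that bound, and the probe entered the comparison through the ES arrays alone. Arpp19, a relative of Ensa, was higher by both of its probes (0.52 and 0.47). These directions did not turn under 5 other scalings and corrections, though the count was 7 higher and 1 lower with each array set to its median and 0 with scan time as a random block.

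In irradiated cells the list was again split in direction. At 15 min, of 10 tested genes 4 were higher in EDRE and 2 in ESRE, beside 24% and 32.7% of all probes. Here Ptpa was 1.67 (adjusted p = 0.000184), Arpp19 1.11 by one probe, and Ppp4c, the catalytic subunit of a related phosphatase, −1.21 (adjusted p = 0.019, from 1 EDRE array). The Ensa probes again disagreed (−1.04, from 1 EDRE array, and 1.5). At 4 h, of 11 tested genes 2 were higher in EDRL and 2 in ESRL, beside 30.2% and 31.8% of all probes. Here Bod1, an inhibitor of PP2A at kinetochores, was 1.24 (adjusted p = 0.00298), and Ensa −1.56 by one probe, from 1 EDRL array. The other Ensa probe went the opposite way, at 0.58, and was not called by limma (adjusted p = 0.0653). Igbp1b was not well above background on any EDRL array and was at least 1.64-fold lower there, with its call again resting on measured signals below the bound. Where a group is 1 array, its spread is taken from the remaining groups. After IR itself, 0 of the 10 tested genes changed in ESRE, ESRL and EDRL, and 1 (Arpp19) rose in EDRE, by 0.72. The shares of all probes called were 0.563%, 8.88%, 2.39% and 7.39%. The median change of the list was 0.49 in ED against ES, 0.68 in EDRE against ESRE and 0.29 in EDRL against ESRL.

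Of 15 genes of regulatory B subunits, 14 were on the array. In ED against ES, 2 of 12 tested were higher and 4 lower, beside 19.8% and 32.1% of all probes, with a median of −0.49. In EDRE against ESRE, 5 of 11 were higher and 3 lower, and in EDRL against ESRL 3 of 13 were higher and 4 lower, beside the shares of all probes given for the first list. The lower counts of these comparisons, and the median given, include probes not well above background on all 3 arrays of the differentiated group. Those probes entered through the stem cell group alone, so the filter favored a lower value for them. After IR, 0 of 12 changed in ESRE and in EDRL, 1 of 12 was lower in ESRL, and 2 of 10 were higher and 1 lower in EDRE, where the shares of all probes called were 0.563%, 2.39%, 8.88% and 7.39%.

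For each gene, the 3 named genes with the closest pattern were found by Pearson's r over its arrays without outlier spots, among 3655 probes used on all arrays. For Ppp2ca these were Sp3 (0.944), Dnajc19 (0.934) and Cnot1 (0.879), over 15 arrays. For Ppp2r1b they were Celf4 (0.965), Cdpf1 (0.963) and Drc3 (0.957), and for Lcmt1 Cox7b (0.974), Tmem205 (0.956) and Hint2 (0.950), each over 18 arrays. The closest was Spry2 for Set (0.897, 16 arrays), Nr1h5 for Ppme1 (0.793, 18 arrays) and Morf4l1 for Ppp2cb (0.781, 15 arrays). All points share the array, its scaling and its scan time, the groups alone can give such values, and no p is given.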

How the data were processed

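Gene expression was measured in 18 samples on Agilent 1-color arrays. Signals were read with Agilent Feature Extraction, 9.1 per the submitters' processing notes and 10.7.3.1 per the file headers, on a design of the mm9 build. The deposited processed signals are intensity values, background-subtracted by the scanner software with no scaling between arrays. A deposited matrix holds log2 values for 30133 probes, which, as tested on the files, are log2 signals minus about the median of each array; it served as an alternative. Columns of other samples numbered 0.

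Of 39448 spots per array, 1417 control spots and 200 unmarked negative spots were left out, as were spots marked as outliers. RefSeq named 22216 of the 37246 probes. Signals were log2 transformed, and the 75th percentile of the array was subtracted. A probe entered a comparison where all 3 arrays of a group in it read well above background, which 49.5% to 86.1% of probes did per array. Precision is limited by having 3 arrays per group. The 6 group means were fitted to all 18 arrays (limma 3.58.1, R 4.3.3), by least squares on the spots left, with moderated variances and Benjamini-Hochberg adjustment over all probes tested. The procedure was tested on simulated data. Analysis used numpy 2.4.6, pandas 2.3.3, scipy 1.17.1 and matplotlib 3.10.9.

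All 8 members are named; genes of the first list are named where they changed by more than 2-fold, and the B subunits are given by counts. The members and lists were chosen with earlier results of these data known. Alternatives changed the scaling, the background correction (normexp with an offset of 50, on median signals), the outlier spots, the detection filter, the test, the arrays fitted and the blocks. Scan time was a random block (consensus correlation 0.81 over 5839 probes). Between replicates of a group, r across probes was 0.949 to 0.996; probes are not independent of each other.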

Additional observations from a re-analysis of the deposited data

How the results depend on the processing

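Of 1861 values of the PP2A genes under the alternatives, 1775 stayed on their side of the threshold, 49 came to pass it, 30 no longer passed it and 7 turned in direction with a call in one of the fits; of the 1775, 104 changed sign with no call in either fit. Besides leaving out arrays there were 16 alternatives, of which 1 (outlier spots kept with each array set to its median) was chosen after seeing the data. With scan time as a random block, 0 genes were called in ED against ES (3 in the fit reported above), in EDRE against ESRE (1) and in EDRL against ESRL (2); the cause was not tested. In ED against ES, 5 genes were called in the deposited matrix and 5 with outlier spots kept and each array set to its median. In ESRE against ES, 1 gene, Ppp2ca, was called in place of 0 with the array median, in the deposited matrix, with outlier spots kept, with only the groups compared in the fit, without the 3 dimmer arrays, by the methods' t-test unadjusted, and with outlier spots kept and the array median. In ESRL against ES, in place of 0, 1 was called with the array median and 1 without the dimmer arrays, and 2 in the deposited matrix and 2 with outlier spots kept and the array median. In EDRE against ED, in place of 0, 1 was called with normexp (Lcmt1) and 1 by the unadjusted t-test (Set). In EDRE against ESRE, 0 were called with quantile normalization, 0 by the methods' t-test adjusted and 0 with a 2-fold limit, 2 in the deposited matrix, 2 with outlier spots kept and the array median, and 3 without the dimmer arrays, where EDRE is 1 array with its spread taken from the remaining groups; the 1 gene called was Ppp2cb with the array median, Ppme1 with normexp and Set with only the groups compared, in place of Ppp2r1b. In EDRL against ESRL, 4 were called with the array median, 5 in the deposited matrix, 5 with outlier spots kept and the array median, and 1 by the methods' t-test, adjusted or unadjusted. The interaction at 15 min had 1 gene in place of 0 in the deposited matrix, 1 with outlier spots kept, 1 without the dimmer arrays and 1 with outlier spots kept and the array median, Ppp2ca each time, and the interaction at 4 h had 1 without the dimmer arrays. The adjusted t-test called 3 genes in ED against ES and 0 in the 4 comparisons after IR, and it was not run for the interactions, which it could not give. In EDRL against ED every alternative called 0. Over all probes, leaving aside the unadjusted t-test and single arrays, the number called moved between 6069 and 18431 in ED against ES (14858 as reported), 0 and 1510 in ESRE against ES (157), 0 and 3696 in ESRL against ES (2482), 0 and 4946 in EDRE against ED (1809), 36 and 4712 in EDRL against ED (608), 8292 and 16867 in EDRE against ESRE (13887), 8883 and 18186 in EDRL against ESRL (16365), and 0 and 1284 (563) and 0 and 1834 (311) in the interactions at 15 min and 4 h, with the scan time block lowest in all but EDRE against ED. Leaving out 1 array gave up to 5512 in ESRL against ES, 8066 in EDRE against ED and 7369 in the interaction at 15 min.

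Leaving out 1 array at a time gave 2 to 3 genes in ED against ES, 0 to 1 in ESRE against ES, 0 to 1 in ESRL against ES, 0 to 2 in EDRE against ED, 0 to 0 in EDRL against ED, 0 to 2 in EDRE against ESRE, 2 to 3 in EDRL against ESRL, and 0 to 1 in the interaction at 15 min and 0 to 1 at 4 h. Directions turned for Ppp2cb in ED against ES, to 0.56 with the array median (adjusted p = 0.0342), 0.56 in the deposited matrix (adjusted p = 0.0394) and 0.56 with outlier spots kept and the array median (adjusted p = 0.0387). In EDRE against ESRE they turned for Ppp2cb, to 0.85, 0.57 and 0.57 under the same settings, and for Ppme1, to 1.02 with normexp (adjusted p = 0.0227). With the replicate block no call changed (Ppp2ca in ED against ES 1.18, adjusted p = 0.00921), and the same counts of 3, 0, 0, 0, 0, 1 and 2 genes were called in the comparisons of 2 groups and 0 in both interactions. Samples with the same number deviated with r between -0.43 and 0.30. With 3 samples per group, these values cannot decide whether samples with the same number were paired.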
